A study of Mus musculus with 12 samples.

Results

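One gene can give rise to several circular RNAs, and the 424 genes described here are those whose mix of circles could be followed in every library. They are the named host genes with at least 2 back-splice junctions listed and a summed junction signal of at least 50 in each of 6 libraries. They make up 30.5% of the 1390 named hosts with 2 or more junctions, and 424 of 2947 named hosts in all. Their 2471 junctions are part of 7025 listed, and they held 62.4% to 64.4% of the signal of a library. The quantity followed is the share of each junction in the summed signal of its host, which is separate from how much circular RNA the host yields in all.

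The libraries came from hippocampus of mice aged 7 months, 3 from wild-type (WT) animals and 3 from 5xFAD animals, all carrying the title prefix AT, which the labels do not spell out. The design text names an A-tailing library type with RNase R, an exonuclease that digests linear RNA and leaves circles. 5xFAD mice are a model of amyloid deposition: their transgenes, of which human APP is one, bear familial Alzheimer mutations, and Thy1 regulatory sequence directs them mainly to neurons. The strain therefore models amyloid made by neurons and not the whole disease. The labels give neither strain background nor sex, and do not say that the samples were separate animals. A p-value therefore measures how far these samples spread, which may be technical in part.

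A circular RNA forms when the spliceosome joins a splice donor to an acceptor that lies upstream of it, a reaction called back-splicing. The upstream end of the back-spliced interval is then set by the acceptor and the downstream end by the donor, and a gene with several usable acceptors or donors can give several circles. Brain, and neurons in particular, are known for abundant circular RNA, much of it from genes of synaptic function.

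The number of reads behind the shares differed between libraries. Whole junction reads recovered from the signal came to 438790, 695539 and 695528 in WT replicates 1 to 3 and to 191408, 683540 and 659414 in 5xFAD replicates 1 to 3. A member host held a median of 507 reads per library and at the lowest 58, and in 5xFAD replicate 1 the median was 186. Of the 2471 junctions, 154, 4 and 35 were at 0 in the WT libraries and 142, 8 and 15 in the 5xFAD libraries. Replicate 1 of either genotype thus had the fewest reads and the most junctions at 0. Among cell type markers, 11 of 16 neuronal genes were listed as hosts and 6 were members, with a summed signal of 2137 to 2776 in WT and 2315 to 2833 in 5xFAD. Of 13 astrocyte markers 5 were listed (107 to 127 in WT, 75.2 to 109 in 5xFAD), of 17 oligodendrocyte markers 6 (150 to 277 and 146 to 315), and of 7 precursor markers 2 (3.37 to 10.7 and 5.20 to 10.04). Of 16 microglial markers Plxdc2 and Ikzf1 alone were listed (25.03 to 45.8 and 33.5 to 50.2), and 0 vessel, choroid plexus or blood markers were. No marker of a non-neuronal list was a member. In bulk tissue, fewer cells of a type and less RNA per cell cannot be told apart, and the part of cell makeup in any share was not tested.

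The rule selects on summed level in every library and not on genotype. Hace1, Fam172a and Ralgps2 stood just inside the threshold, with 50.2, 50.3 and 50.8 in their lowest library. Rnf216, Rbm33 and Dgkd stood just outside, at 49.8, 49.4 and 49.0. Every listed junction had all 3 libraries of either genotype at a signal of 2.03 or more. This minimum was read from the deposited values and is taken here as the condition of listing. Any rarer junctions of these hosts do not enter their shares. Of the 2471 junctions, 1728 met this in both genotypes, 382 in WT alone and 361 in 5xFAD alone, and a junction listed through 1 genotype alone entered through its signal in that genotype.

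Most hosts gave one dominant junction and several minor ones. A host had a median of 5 junctions (quartiles 3 and 7), 65 hosts had 2, and 51 had 10 or more. The leading junction, the one with the highest mean share over the 6 libraries, held a median of 59.1% of its host (quartiles 43.1% and 80.5%). It held at least 50% in 275 hosts, at least 75% in 128 and at least 90% in 63, while in 20 hosts it held under 25%. The median share over all 2471 junctions was 6.92%, with 1016 junctions under 5% and 160 under 1%. The effective number of junctions, the inverse of the summed squared shares, had quartiles of 1.51, 2.31 and 3.32. Across hosts this number followed the number of junctions listed (Spearman's rho 0.812, n = 424 hosts). It cannot exceed the number listed, so its definition favours a positive rho. The leading share was nearly unrelated to host signal (rho 0.0817). Both rhos are descriptions across genes that share the same libraries, and genes are not independent replicates.

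**Figure D1:**
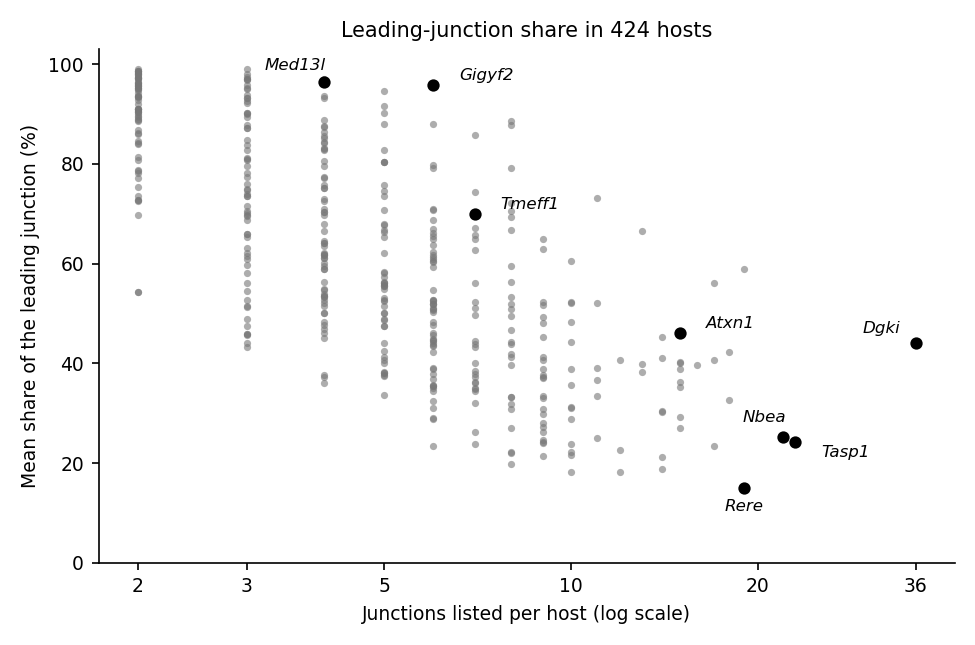
Mean share of the leading junction over the 6 libraries (vertical axis, %) against the number of junctions listed for its host (horizontal axis, log scale), 1 point for each of 424 hosts. Med13l and Gigyf2 gave nearly all signal to one junction, while Rere and Nbea, with 19 and 22 junctions, had leading junctions with a small share.

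The 6 hosts with the highest signal differed widely in this respect. Gigyf2, which encodes a translational repressor that acts with a cap-binding partner, had 6 junctions, of which chr1:89260678-89276583 held 94.9, 96 and 95.1% in WT and 95.3, 96.5 and 96.7% in 5xFAD. Every library lay within a narrow band, and the groups overlapped. The log2 difference in odds of this junction against the rest of its host, 5xFAD minus WT, was 0.30 (95% interval -0.30 to 0.91). Of the 6 Gigyf2 junctions, 4 begin at base 89260678, among them the second, chr1:89260678-89270686, at 4.02, 2.73 and 4.09% in WT and 4.07, 2.54 and 2.07% in 5xFAD. Med13l, a subunit of the Mediator kinase module, gave 96.7, 96.7 and 95.5% in WT and 97.6, 96.7 and 95.2% in 5xFAD of its signal to chr5:119043341-119043579, an interval of 238 bp. Its host signal was far less even, at 1749, 1176 and 1490 in WT and 2689, 1069 and 991 in 5xFAD, so the level of the host varied between libraries (coefficient of variation 41.6%) while its makeup varied little.

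Atxn1 encodes ataxin, whose polyglutamine expansion causes a spinocerebellar ataxia, and 15 junctions were listed for it. Its leading junction, chr13:45890877-46051944, held 48.3, 46.7 and 48.5% in WT and 43.5, 42.9 and 46.8% in 5xFAD. The lowest WT library and the highest 5xFAD library differed by little and the groups overlapped, with a log2 odds difference of -0.20 (95% interval -0.59 to 0.20). The second, chr13:45947696-46051944, ends at the same base and stood at 20.2, 16.03 and 15.9% in WT and 27.9, 17.9 and 14.5% in 5xFAD, highest in 5xFAD replicate 1. Tmeff1, a transmembrane protein with follistatin-like and EGF-like domains, had 7 junctions and a leading share of 71.8, 69.6 and 66.3% in WT and 75.7, 66.3 and 70.4% in 5xFAD at chr4:48617452-48630203. Here too the groups overlapped, with a difference of 0.11 (95% interval -0.41 to 0.64).

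The hosts with the most junctions were Dgki, Tasp1, Nbea and Rere. Dgki, a diacylglycerol kinase, had 36 junctions, the most of any host, yet 1 of them, chr6:36979762-37008028, held 43.3, 44.5 and 46.3% in WT and 42.5, 44.7 and 43.8% in 5xFAD. These values lay within a few percentage points in all 6 libraries (log2 odds difference -0.06 (95% interval -0.47 to 0.35)). The second Dgki junction, chr6:36844775-36887400, held 11.1, 9.49 and 9.42% in WT and 7.87, 7.57 and 8.85% in 5xFAD; its groups did not overlap and its difference was -0.34 (95% interval -0.88 to 0.21). Tasp1, the protease that cleaves the MLL histone methyltransferase, had 23 junctions, 9 of them ending at base 139883235. Its leading junction, chr2:139867829-139883235, held 30, 22.2 and 21.1% in WT and 32.5, 18.5 and 21.6% in 5xFAD. Replicate 1 was the highest library in both genotypes. Nbea, or neurobeachin, a BEACH-domain protein of membrane traffic to the synapse, had 22 junctions and a leading share of 15.6, 29.5 and 29.6% in WT and 11.7, 31.02 and 34.3% in 5xFAD at chr3:55883780-55895042. Replicate 1 was the lowest of each genotype, and in both of those libraries another junction, chr3:55657692-55695596, led with 24.5% in WT and 44.4% in 5xFAD. Rere, a transcriptional corepressor of the atrophin family, had 19 junctions. Its leading junction, chr4:149874111-149884147, held 15.7, 12.8 and 12.4% in WT and 26.8, 11.7 and 10.2% in 5xFAD, and again replicate 1 was the highest of each genotype. For the leading junctions of these 4 hosts the spread between replicates was larger than the difference between genotypes.

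**Figure D2:**
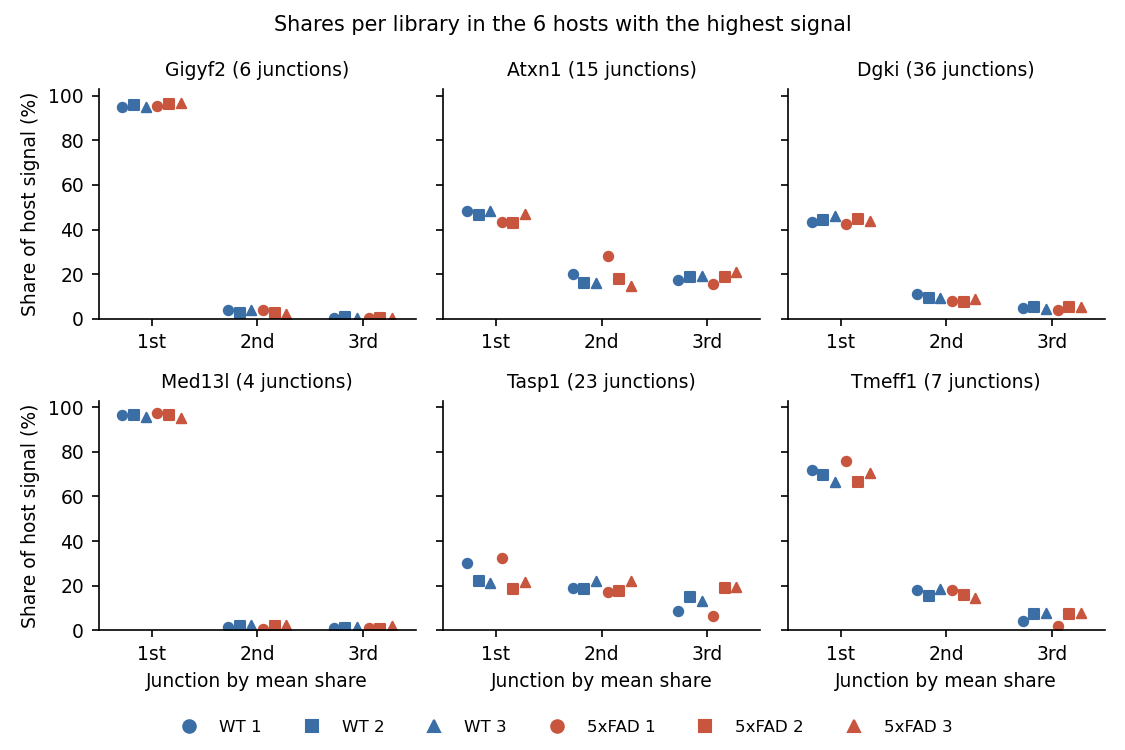
Share of host signal (vertical axis, %) of the 3 junctions with the highest mean share in each of the 6 hosts with the highest signal, 1 symbol for each library (blue WT, red 5xFAD, n = 3 each). The leading junctions of Gigyf2 and Med13l lie above 94% in every library, and in Tasp1 the replicate 1 libraries of both genotypes stand apart from the others.

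The rank of the leading junction held in most hosts. The same junction led in all 6 libraries in 293 hosts, in 5 libraries in 62 and in 4 or fewer in 69. Where it led everywhere, its lead over the second junction had a median of 54.4 percentage points, and where it did not, 8.36. In 27 hosts the junction with the highest mean share differed between the genotypes, but in 0 of them did the exchange hold in every library, and the exchange was by a median of 1.14 points. The largest was in Stk3, a kinase of the Hippo pathway with 3 junctions. There chr15:35002184-35045400 held 27, 41.4 and 43.6% in WT and 36.1, 56.1 and 59.9% in 5xFAD, and chr15:35029188-35045400, which ends at the same base, held 58.9, 43.4 and 45.4% in WT and 38.1, 38.6 and 30.6% in 5xFAD. The first overlapped between genotypes, the second did not, and their log2 odds differences were 0.80 (95% interval -0.31 to 1.91) and -0.80 (95% interval -1.74 to 0.15). The next were Ckap5, a microtubule polymerase, Ap3b1, a subunit of the AP-3 adaptor complex, and Cadm1, a synaptic adhesion molecule, with exchanges of 6.42, 5.77 and 3.67 points. The leading junctions of all 3 overlapped between genotypes. In Cadm1, for example, chr9:47596053-47607613 held 19.3, 37.3 and 19.1% in WT and 51.9, 28.2 and 29.2% in 5xFAD.

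Junctions of one host tended to share a boundary. Of the 2471 junctions, 2064 (83.5%) had an end at the same base as another junction of their host. Of these, 1355 shared the start coordinate, 1408 the end coordinate and 699 both. Leading junctions did so in 357 of 424 hosts (84.2%) and the others in 1707 of 2047 cases (83.4%), and 803 of the others shared an end with the leading junction itself. For 345 hosts with 1972 junctions the strand was known, and there 1160 junctions shared the upstream end, where the acceptor lies, and 1041 the downstream end. In 67 hosts all junctions met at a single base, 41 of them hosts with 2 junctions. In 309 hosts at least 1 pair of junctions did not overlap at all, and in 115 hosts all junctions overlapped. Coordinates are those of the deposited table, in mm9, and no mm9 annotation was used, so these ends are not assigned to exons or introns.

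Pooled over hosts, leading junctions spanned less of the genome than the others. The interval, end minus start, had a median of 10378.5 bp for leading junctions (quartiles 4535.5 and 23815.8) and 19729 bp for the others (7581.5 and 41027.5). Across the 2471 junctions, length and mean share had a Spearman's rho of -0.257, a description over junctions that share hosts and libraries. Hosts with many junctions give more of the others, so the pooled medians also mix hosts. Among the 359 hosts with at least 3 junctions, the leading one was the shortest in 84 and the longest in 47. Whether 84 exceeds the number expected by the junctions per host was not tested. Intervals under 1000 bp numbered 135 and took 8.85, 8.20 and 8.62% of member signal in WT and 10.96, 8.08 and 8.15% in 5xFAD. The signal-weighted mean length, taken on the log scale within hosts and averaged over hosts, was 9168, 9670 and 9709 bp in WT and 8584, 9836 and 9961 bp in 5xFAD. Replicate 1 had the lowest value in both genotypes, the groups overlapped, and the difference of -0.003374 on the log10 scale gave an exact permutation p of 1 (two-sided, smallest possible 0.1) in a test added after the data had been seen. Its sign was not stable, being positive without WT replicate 2, without WT replicate 3 or without 5xFAD replicate 1.

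In 15 pairs from 11 hosts, 2 junctions shared one end and lay within 10 bp of each other at the other, and these pairs were looked for after the data had been seen. In 13 of the 15 the ends were exactly 3 bp apart. For 9 of those 13 the strand was known, and in all 9 the shifted end was the upstream one, 0 being downstream. The other 4 were all in Atxn1, whose strand was not matched. Tandem acceptors 3 bp apart are known from linear splicing, but whether these ends are such acceptors was not tested. The less used of the 2 held a median of 11.4% of its pair, and 0 of the 15 had an unadjusted p under 0.05 for its share by limma.

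The balance within a pair varied over the hosts. Beside the leading Atxn1 junction, chr13:45890877-46051941 took 7.02, 5.19 and 6.06% in WT and 5.99, 6.61 and 4.37% in 5xFAD of the pair. In Elf2, an ETS-family transcription factor, chr3:51111971-51129954 took 1.402, 1.97 and 1.63% in WT and 0.5598, 1.94 and 1.38% in 5xFAD. In Elavl3, a neuronal RNA-binding protein, chr9:21840755-21841301 took 6.85, 6.97 and 8.84% in WT and 8.46, 9.92 and 6.24% in 5xFAD. These were minor ends in every library, and the groups overlapped. A more even use was seen in Anks1b, a postsynaptic scaffold, where chr10:90377437-90411417 took 26.6, 29.2 and 23.8% in WT and 30, 35.8 and 34.3% in 5xFAD, and in Bcl11b, a zinc-finger transcription factor of neurons, where chr12:109227674-109228037 took 35.2, 27.96 and 31.5% in WT and 22.5, 25.5 and 21% in 5xFAD. In both the groups did not overlap, higher in 5xFAD for this Anks1b pair and lower for Bcl11b. A second Anks1b pair with the same shifted end went the other way, chr10:90377437-90404257 taking 34.6, 40.5 and 61.1% in WT and 23.5, 29.7 and 25% in 5xFAD, also without overlap. Its junctions were traces, with mean shares of 0.623% and 0.303% of the host, against 4.04% and 1.71% in the first pair. Its percents thus rest on far fewer reads. In Hivep2, another zinc-finger protein, chr10:13724003-13786490 took 11.1, 22.01 and 15.2% in WT and 37.7, 22.4 and 26.4% in 5xFAD, and in Kmt2a, the MLL methyltransferase, chr9:44636866-44637351 took 3.304, 3.24 and 3.58% in WT and 3.82, 5.41 and 7.13% in 5xFAD. Both were higher in every 5xFAD library than in any WT library. The percent within a pair was not tested.

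The comparison of the genotypes asked whether 5xFAD hippocampus chose other junctions of its host genes than WT hippocampus. No junction passed the test. With limma on the log2 odds, adjusted over all 5238 junctions of the 1390 hosts, 0 of the 2471 junctions passed an adjusted p of 0.05, against 0% of all junctions tested, and the smallest adjusted p was 0.856. At an unadjusted p under 0.05 there were 84 (3.40%), 45 higher and 39 lower in 5xFAD, in 71 hosts. Of these, 33 of the 45 higher ones were listed through 5xFAD alone and 28 of the 39 lower ones through WT alone, so that the listing itself favoured a difference in that direction. Over all junctions tested the same threshold took 5.21%, with 2.63% higher and 2.58% lower, and among the 2767 junctions of hosts under the signal threshold 6.83%. edgeR on the recovered reads called 0, with 97 members at an unadjusted p under 0.05 against 4.20% of all tested, and its differential splicing test called 0, with 62 members against 2.69% of all tested. The groups did not overlap for 119 junctions higher in 5xFAD (4.82%, against 5.67% of all tested) and for 122 lower (4.94%, against 5.94%). By limma and by overlap, the members' percent was thus below that over all junctions. The median absolute log2 odds difference was 0.40 over the members, 0.54 over all junctions and 0.68 in the hosts under the threshold.

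**Figure D3:**
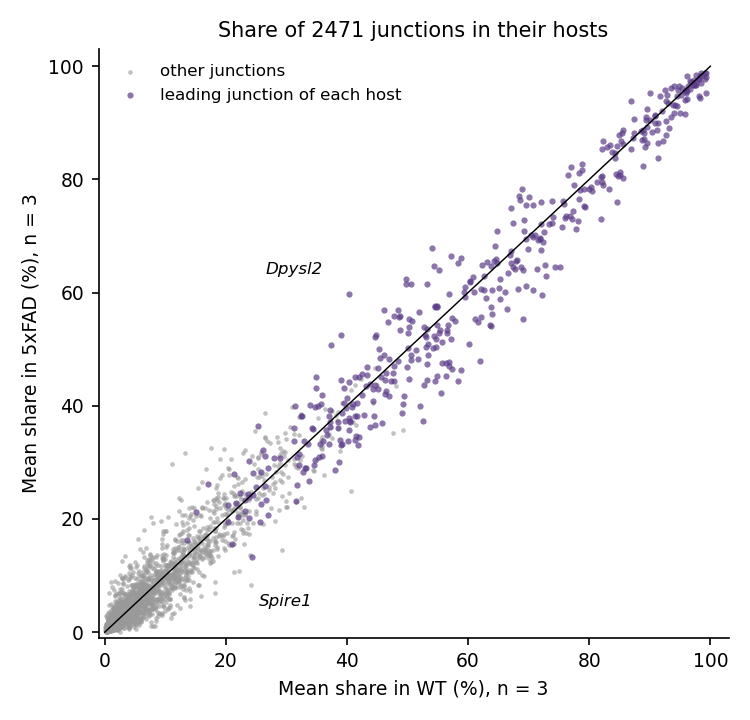
Mean share of each of 2471 junctions in WT (horizontal axis, %) and 5xFAD (vertical axis, %), n = 3 libraries each, with the line of equal shares. Leading junctions are purple and the others grey; the points scatter around the line, and the leading Dpysl2 junction and a Spire1 junction are marked as far from it.

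The median difference between genotype means was below the median standard deviation of single libraries. A share differed between genotype means by a median of 1.47 percentage points, with a 95th percentile of 7.78, while the standard deviation within a genotype had a median of 2.84. For leading junctions the median difference was 2.94 points against a standard deviation of 6.31. A mean of 3 libraries varies less than a single library, so this comparison does not test genotype. The leading share was lower in 5xFAD in 257 hosts and higher in 167, by a median of -0.84 points. Its mean over hosts was 62.1, 60.9 and 61.2% in the WT libraries and 61.7, 59.9 and 60.0% in the 5xFAD libraries. The groups overlapped, and the difference of -0.88 points had an exact permutation p of 0.3 (two-sided, smallest possible 0.1), a test added after the data had been seen. Within replicate numbers the differences were -0.416, -1.01 and -1.23 points, all of one sign, and exchanging genotypes within numbers gave an exact p of 0.25, the smallest that 3 pairs allow.

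What the design could resolve is given by the intervals. For leading junctions the 95% interval of the log2 odds difference had a median half-width of 1.02, ranging from 0.39 to 2.58. It lay wholly within a 2-fold difference in odds in 77 of 424 hosts and within a 4-fold difference in 369. For junctions with a share under 5%, the median half-width was 1.70. For most minor junctions, then, a 2-fold difference in odds was not detectable at this depth and replicate number. The median half-width of leading junctions also exceeded a 2-fold difference, so the same limit held for many of them. These intervals are not adjusted for the number of junctions tested, and a call needed a larger difference. The variance of a leading share between replicates was a median of 9.66 times the binomial variance of its reads, and above it in 413 hosts. For the 1016 junctions with a share under 5% the median ratio was 4.79, and it was above 1 in 953. The leading share had a median coefficient of variation of 11.8%, against 19.4% for the host's level. A share is bounded by the whole signal of its host and a level is not, so these are not like measures.

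The 16 junctions with the smallest unadjusted p, 8 in each direction, were nearly all minor ones. None was the leading junction of its host, their mean shares ran from 0.149% to 16.3%, and 11 of the 16 had at least 1 library at 0. By the listing minimum, 7 of the 8 higher ones were listed through 5xFAD alone and 6 of the 8 lower ones through WT alone, the exceptions being Cacna2d3 and the Spire1 and lower Iqgap2 junctions. A low value in the other genotype is what that minimum allows, and their p-values are given as descriptions. Their groups did not overlap, which the choice by p favours, and by limma their adjusted p lay between 0.856 and 0.899. A share of 0 allows up to 3 reads, which over the 32 such values among the named junctions is a share of 0.0252% to 3.26%, counting error only. Fitted differences that involve a 0 depend on the 0.5 added to the signal and are no bounds.

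**Figure D4:**
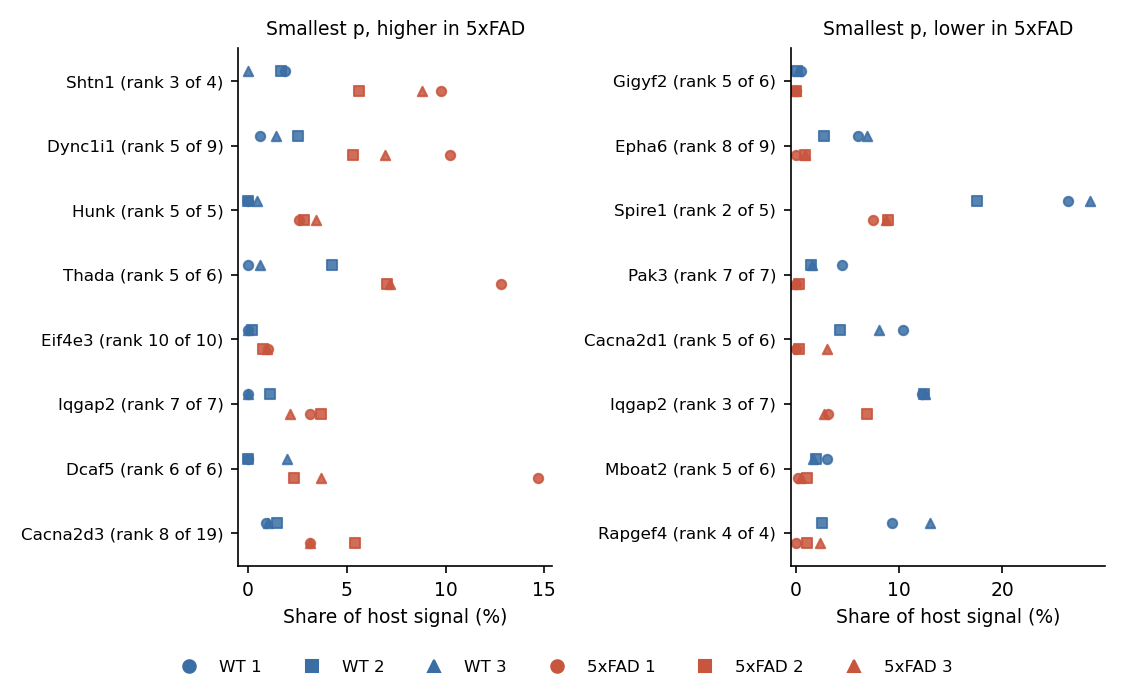
Share of host signal (horizontal axis, %) in each library for the 8 junctions with the smallest unadjusted p that were higher (left) and the 8 that were lower (right) in 5xFAD, with the rank of the junction in its host. Blue symbols are WT and red 5xFAD, n = 3 each; none passed the adjusted threshold.

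The 8 junctions higher in 5xFAD included those of Shtn1, Dync1i1 and Cacna2d3. Shtn1 encodes shootin, which couples actin to adhesion in growing axons, and its junction chr19:59064678-59084337 held 1.89, 1.66 and 0% in WT and 9.76, 5.59 and 8.79% in 5xFAD. This rested on 7, 6 and 0 WT reads and 16, 24 and 35 5xFAD reads, and the log2 odds difference was 2.71 (SE 0.80, unadjusted p = 0.00633). Dync1i1 encodes an intermediate chain of dynein, the motor of retrograde transport, and chr6:5911840-5922209 held 0.616, 2.504 and 1.41% in WT and 10.2, 5.33 and 6.94% in 5xFAD. Its difference was 2.29 (SE 0.69, unadjusted p = 0.00689), with the highest share in the shallow 5xFAD replicate 1. Cacna2d3, an auxiliary calcium channel subunit with 19 junctions, had no library at 0, and chr14:29782343-29795559 held 0.8999, 1.44 and 1.001% in WT and 3.11, 5.41 and 3.13% in 5xFAD. Its difference was 1.69 (SE 0.61).

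The remaining 5 were at 0 in at least 1 WT library. Hunk, a protein kinase, had 0, 0 and 0.469% in WT and 2.56, 2.83 and 3.44% in 5xFAD at chr16:90464385-90488151, from 0, 0 and 2 WT reads and 4, 13 and 12 5xFAD reads. Eif4e3, a member of the cap-binding eIF4E family, had 0, 0.205 and 0% in WT and 1, 0.7397 and 0.937% in 5xFAD at chr6:99582250-99619520. In Dcaf5, a substrate receptor of cullin-RING ubiquitin ligases, chr12:81464990-81500972 held 0, 0 and 1.96% in WT and 14.7, 2.302 and 3.704% in 5xFAD. The last was uneven among the 5xFAD libraries, with replicate 1 far above the other two. Thada had 0, 4.25 and 0.597% in WT and 12.8, 7.02 and 7.202% in 5xFAD at chr17:84622013-84630504, and Iqgap2, a calmodulin-binding scaffold protein, had 0, 1.13 and 0% in WT and 3.14, 3.67 and 2.14% in 5xFAD at chr13:96431541-96443711.

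Iqgap2 also appeared among the junctions lower in 5xFAD. The junction ranked next after the leading pair, chr13:96519947-96607878, held 12.3, 12.4 and 12.5% in WT and 3.14, 6.91 and 2.72% in 5xFAD, with 55, 66 and 64 WT reads and 5, 32 and 14 5xFAD reads. The WT libraries were nearly equal, all 5xFAD libraries lay below them, and the difference was -1.69 (SE 0.57). Spire1, an actin nucleator, gave the largest shares of the 16, where chr18:67705268-67712461, second of 5 junctions, held 26.3, 17.6 and 28.5% in WT and 7.48, 8.91 and 8.76% in 5xFAD. The 5xFAD libraries were close together below all WT libraries, and the difference was -1.72 (95% interval -2.84 to -0.60) with an unadjusted p of 0.00636 and an adjusted p of 0.856 by limma. The leading Spire1 junction, chr18:67678944-67679544, held 29.8, 36.8 and 38.3% in WT and 63.6, 41.98 and 29.9% in 5xFAD, and its groups overlapped.

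Gigyf2 had the smallest p by limma, at a junction that is a trace of its output and was listed through WT alone. The junction chr1:89230844-89261854 held 0.522, 0.137 and 0.192% in WT and 0, 0.0454 and 0% in 5xFAD, or 35, 20 and 24 WT reads and 0, 6 and 0 5xFAD reads. With 0 reads, its share could be up to 0.106% in 5xFAD replicate 1 and up to 0.0252% in 5xFAD replicate 3. The log2 odds difference was -3.20 (SE 0.84, unadjusted p = 0.00291). The differential splicing test of edgeR gave this junction an adjusted p of 0.363, the smallest of any member junction by that test and shared with a Pak3 junction. Unadjusted, that test gave 0.000722 for Gigyf2 and a lower 0.000697 for Pak3. Pak3, a neuronal p21-activated kinase, stood similarly, with 4.48, 1.44 and 1.59% in WT and 0, 0.2999 and 0% in 5xFAD at chrX:140144190-140167746 and 30, 10 and 10 WT reads and 0, 2 and 0 5xFAD reads.

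The other 4 lower junctions were in Epha6, Cacna2d1, Rapgef4 and Mboat2. Epha6, an Eph receptor tyrosine kinase, had 5.99, 2.71 and 6.93% in WT and 0, 0.908 and 0.891% in 5xFAD at chr16:59775368-59839193. Cacna2d1, an auxiliary calcium channel subunit and the receptor of gabapentin, had 10.4, 4.29 and 8.06% in WT and 0, 0.321 and 3.07% in 5xFAD at chr5:15805746-15825976. Both came from a host with few reads in 5xFAD replicate 1, where a 0 allows 1.94% and 2.86%. Rapgef4, a cAMP-activated exchange factor for Rap, had 9.34, 2.49 and 13.04% in WT and 0, 1.13 and 2.296% in 5xFAD at chr2:72012479-72018160, and Mboat2, a lysophospholipid acyltransferase, had 3.003, 1.997 and 1.66% in WT and 0.209, 1.096 and 0.5102% in 5xFAD at chr12:25563055-25609684. The 0 of Rapgef4 in 5xFAD replicate 1 came from 92 host reads and allows 3.26%, which is above its lowest WT share of 2.49%.

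The largest difference in share was at a leading junction outside this rule, chosen after its values had been seen. Dpysl2 encodes CRMP2, a tubulin-binding protein of axon growth, and its junction chr14:67443181-67453213 held 27.03, 45.3 and 48.7% in WT and 67.3, 52.6 and 59.1% in 5xFAD, a difference of means of 19.3 points. The second junction, chr14:67443181-67448819, has the same start and held 50, 33.6 and 38.6% in WT and 24.8, 27.4 and 22.5% in 5xFAD. The groups did not overlap at either, in opposite directions, and the log2 odds differences were 1.15 (SE 0.48, unadjusted p = 0.0368) and -1.03 (SE 0.44, unadjusted p = 0.0384). At the leading junction the 5xFAD value farthest from WT was that of replicate 1. Of the 424 leading junctions 3 had an unadjusted p under 0.05 by limma, a smaller part than the 5.21% of all junctions tested. The others were in Dgkb and Mkln1, which encodes muskelin. Differences of at least 10 points were seen at 54 junctions in 44 hosts.

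Genes grouped by role gave 0 called junctions in each of 12 groups, by limma. The median absolute log2 odds difference was above the members' 0.40 in 6 groups and above the 0.54 over all junctions in 2. The 9 presynaptic active zone hosts had 70 junctions, 0 of them at an unadjusted p under 0.05 (5.21% over all tested), and a median of 0.39. Cadps2, which primes dense-core vesicles, and Erc2, an active zone scaffold, held the smallest p there. At chr6:23446757-23549510 Cadps2 had 0, 3.55 and 1.69% in WT and 4.88, 3.15 and 10.9% in 5xFAD, and at chr14:28893317-29084911 Erc2 had 0, 1.91 and 0% in WT and 2.11, 0.968 and 1.05% in 5xFAD. The groups overlapped at both. The 7 postsynaptic scaffold hosts had 72 junctions, 1 higher and 1 lower at that threshold (2.78%), and a median of 0.47. Gphn, or gephyrin, the scaffold of inhibitory synapses, had 0.8798, 3.49 and 2.67% in WT and 7.38, 6.98 and 5.99% in 5xFAD at chr12:79663842-79738566, and Dlgap1, a scaffold of excitatory synapses, 0.731, 0.7196 and 1.04% in WT and 0, 0.323 and 0.2203% in 5xFAD at chr17:70932407-71012149. In these the groups did not overlap, but the Gphn junction was listed through 5xFAD alone and the Dlgap1 junction through WT alone.

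The 4 glutamate receptor hosts had 21 junctions, 1 higher and 1 lower at an unadjusted p under 0.05 (9.52%), and a median of 0.56. Grm5, a metabotropic receptor, had 4.33, 4.28 and 1.47% in WT and 27.6, 7.08 and 5.603% in 5xFAD at chr7:94952324-94952574, and Grin2b, an NMDA receptor subunit, 8.87, 3.402 and 2.24% in WT and 0, 2.18 and 0.598% in 5xFAD at chr6:135993908-135994337. The groups did not overlap, and the Grm5 value of 5xFAD replicate 1 stood far above the rest. The Grin2b junction was listed through WT alone. The 13 ion channel hosts had 101 junctions, 5 higher and 1 lower (5.94%, against 5.21% of all tested), and a median of 0.49, with the Cacna2d3 and Cacna2d1 junctions above having the smallest p. The 9 synaptic adhesion hosts had 70 junctions, 0 higher and 2 lower (2.86%), and a median of 0.50. Of these, Tenm4, a teneurin, had 16.4, 11.1 and 27.01% in WT and 13.95, 2.43 and 4.63% in 5xFAD at chr7:103960342-103972456 and overlapped, and Lrp1b, a member of the LDL receptor family, had 5.41, 3.61 and 5.72% in WT and 1.44, 1.097 and 3.104% in 5xFAD at chr2:41626364-41816298 and did not.

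The 4 hosts of the cytoskeleton and axonal transport group had 29 junctions, 0 at an unadjusted p under 0.05, and a median of 0.22. This list does not hold Dync1i1, Shtn1, Spire1 or Dpysl2, described above, whose proteins act on actin, tubulin or transport. Dock4, a Rac activator, had 1.23, 1.39 and 0.775% in WT and 1.95, 1.54 and 3.39% in 5xFAD at chr12:41394992-41419626, and Wdr7, a partner of the vacuolar proton pump, 0, 1.09 and 0% in WT and 1.26, 0.675 and 0.628% in 5xFAD at chr18:63937181-63984892. The 4 hosts of the diacylglycerol kinase and BEACH group had 78 junctions, 3 higher and 2 lower (6.41%, against 5.21% of all tested), and a median of 0.45. In Dgkb the leading junction, chr12:38900313-38954710, held 24.1, 27.3 and 21.4% in WT and 6.34, 16.4 and 17.1% in 5xFAD, and chr12:38916646-38954710, with the same end, held 0, 2.53 and 2.33% in WT and 4.23, 6.78 and 8.57% in 5xFAD. The groups did not overlap at either, with log2 odds differences of -1.15 (SE 0.50, unadjusted p = 0.0434) and 2.44 (SE 0.94, unadjusted p = 0.0249). The latter junction was listed through 5xFAD alone. The Dgki junction with the smallest p, chr6:36950041-36971265, was a trace at 0.483, 0.183 and 0.489% in WT and 0, 0.0545 and 0.123% in 5xFAD. It was listed through WT alone.

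Among 16 hosts of transcription and chromatin regulators, 119 junctions gave 1 higher and 1 lower at an unadjusted p under 0.05 by limma (1.68%, against 5.21% of all tested). Their median was 0.30. Kmt2c, a histone methyltransferase, had 25.6, 19.04 and 21.9% in WT and 4.44, 11.2 and 16.7% in 5xFAD at chr5:24794807-24796705, without overlap, and Ash1l, another, had 9.5, 15.98 and 14.1% in WT and 46.3, 15.7 and 33.01% in 5xFAD at chr3:88811063-88811799, with overlap. The 7 ubiquitin hosts, with 33 junctions, had 1 higher and 0 lower (3.03%) and the highest median of the groups, 0.70. Both examples are ubiquitin ligases: Hecw2 had 0, 2.27 and 0.926% in WT and 17.8, 2.88 and 5.74% in 5xFAD at chr1:53942172-53961278, and Herc2 0, 0.954 and 0.426% in WT and 2.15, 1.95 and 1.61% in 5xFAD at chr7:63370071-63377099. Both junctions were listed through 5xFAD alone. The 9 hosts of RNA-binding proteins and circular RNA factors had 60 junctions, 1 higher and 2 lower (5.0%), and a median of 0.37. Rbfox3, the neuronal splicing factor also known as NeuN, had 0, 2.86 and 5.45% in WT and 17.98, 11.7 and 7.87% in 5xFAD at chr11:118362882-118374718, without overlap. This junction too was listed through 5xFAD alone. The 18 hosts with a circle described in brain had 139 junctions, 1 higher and 3 lower (2.88%), and a median of 0.36.

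The amyloid and tau group held App, Sorl1 and Ptk2b, with 14 junctions and a median of 0.33. At an unadjusted p under 0.05 by limma, 1 was higher and 0 lower (7.14%, against 5.21% of all tested). App, the amyloid precursor, had 6 junctions, and its leading one, chr16:85013871-85030610, held 63.7, 64.3 and 66.6% in WT and 56.9, 64.99 and 73.5% in 5xFAD. The 5xFAD libraries lay on both sides of the WT libraries, and the log2 odds difference was 0.04 (95% interval -0.76 to 0.83). The least used App junction, chr16:85056568-85083133, held 0, 1.05 and 0% in WT and 1.89, 1.43 and 1.19% in 5xFAD, from 0, 11 and 0 WT reads and 6, 14 and 11 5xFAD reads, with an unadjusted p of 0.0478 by limma and no overlap of the groups. This junction was listed through 5xFAD alone, which favours a difference in that direction. Sorl1, a sorting receptor of the amyloid precursor, had 0, 10.4 and 2.94% in WT and 4.21, 9.09 and 11.8% in 5xFAD at chr9:41808326-41822657, and its groups overlapped. The AT table lists no value that checks the transgene. In the separate CG libraries of the series the FPKM of Thy1, whose regulatory sequence drives the transgenes, was 296, 308 and 340 in WT and 1136, 1172 and 305 in 5xFAD, so that the library labelled 5xFAD replicate 3 went against its label there. Whether the AT sample of that number comes from the same animal is not given.

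No host passed the test for the spread of its signal over junctions. limma on the log2 effective number called 0 of the 424 hosts, against 0% of the 1381 hosts tested. At an unadjusted p under 0.05 by limma, 5 of the 424 member hosts were higher, against 53 of the 1381 tested (3.84%). Another 5 of the 424 were lower, against 42 of the 1381 (3.04%). The smallest adjusted p of a member was 0.630. Ash1l had the effective numbers 8.21, 4.88 and 5.56 in WT and 3.75, 4.103 and 4.35 in 5xFAD, Epha5, an Eph receptor, 4.23, 3.76 and 4.11 in WT and 2.78, 3.59 and 2.69 in 5xFAD, and Dcaf5 2.39, 2.68 and 2.63 in WT and 3.28, 3.26 and 3.28 in 5xFAD. The first pair were lower in every 5xFAD library and Dcaf5 was higher in every one. Their log2 differences were -0.58 (SE 0.20), -0.43 (SE 0.15) and 0.35 (SE 0.12).

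Averaged over all pairs of the 6 libraries, whole profiles of shares were no farther apart between genotypes than within them. The distance between 2 libraries was taken as the part of a host's signal that would have to move to another junction, averaged over the 424 hosts. It had a mean of 12.7% over the 9 pairs between genotypes and 13.2% over the 6 pairs within, a difference of -0.54 with an exact permutation p of 0.5 (two-sided, smallest possible 0.1). Without 5xFAD replicate 2 or without 5xFAD replicate 3 the difference was positive, at 0.3044 and 0.2193. The pair with the lowest distance was WT replicate 2 and 5xFAD replicate 2, at 7.81%. The pairs between genotypes include those of the same replicate number, at 16.2, 7.81 and 10.3% for replicates 1 to 3. Pairs within a genotype never share a number. Between genotypes, pairs of unlike number ran from 8.95% (WT replicate 2 and 5xFAD replicate 3) to 16.0% (WT replicate 3 and 5xFAD replicate 1). The replicate 1 pair was the farthest apart of all pairs between genotypes, so same-numbered pairs were not closer throughout. Deviations in log2 odds correlated weakly between same-numbered libraries. The means may therefore not be of like pairs, and their difference is not read as a measure of genotype alone. All pairs with 5xFAD replicate 1, the library with the fewest reads, lay between 15.4% and 17.4%, above every other pair.

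**Figure D5:**
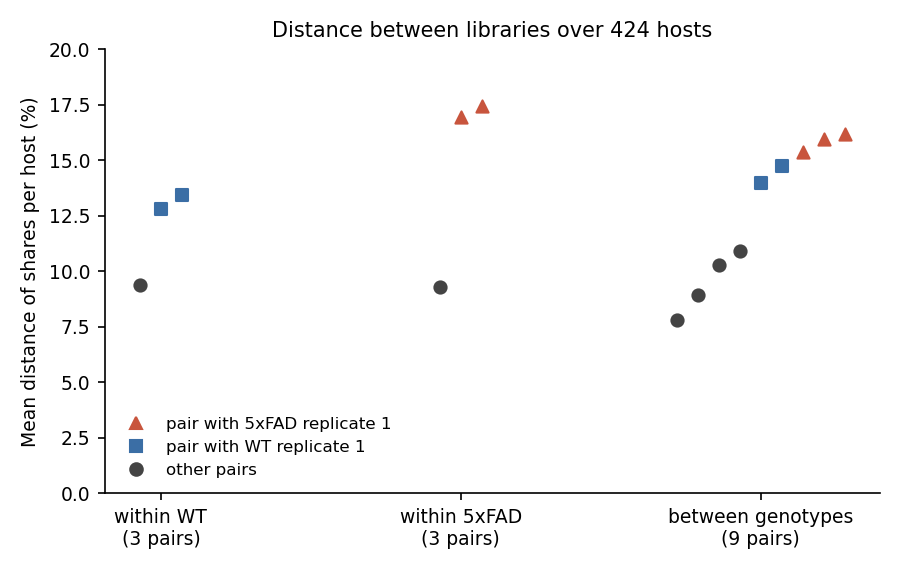
Mean distance of shares per host (vertical axis, %) for each of the 15 pairs of libraries, by whether the pair is within WT, within 5xFAD or between genotypes. Pairs with 5xFAD replicate 1 (red triangles) are the highest in each place they occur, and pairs between genotypes run from 7.81% to 16.2%, those within from 9.29% to 17.4%.

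Junctions called for their level by the submitters were mostly minor members of their hosts. The authors' deposited table gives an adjusted p under 0.05 for 70 of the 2471 junctions (2.83%, against 3.76% of all 7025 listed), 24 higher and 46 lower in 5xFAD, in 58 hosts. Their median share was 3.28%, and 5 were leading junctions, in Dcun1d4, Dgkb, Pias1, Rbfox3 and Zfat. By share, 57 of the 70 did not overlap between genotypes and 29 had an unadjusted p under 0.05 by limma, but both use the same 6 libraries as the deposited calls. The leading shares in Dcun1d4, for instance, were 70.8, 74.5 and 70.6% in WT and 69.5, 67.3 and 71.8% in 5xFAD, and in Zfat 53.8, 56.8 and 60.03% in WT and 50, 50.8 and 40.3% in 5xFAD. The groups overlapped in Dcun1d4 and did not in Zfat.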

How the data were processed

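The 6 AT libraries were used, 3 per genotype, grouped by their titles. The table deposited by the authors gives a normalised signal per mm9 interval and library, and beside it a log2 ratio with its p-value and an adjusted p-value, per the file headers. The submitters' processing notes name mm9 and DESeq, with no version. The aligner, the junction caller and the strand setting were not given in any source used. Intervals were treated as back-splice junctions. All signal values (100%, tolerance 0.01) were whole multiples of 1 step per library, so reads were recovered. The deposited FPKM of the CG libraries, made by the authors, served for Thy1 alone.

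Shares were tested with limma 3.58.1 in R 4.3.3 on log2((junction + 0.5)/(rest of host + 0.5)), with the prior variance as a trend on effective signal, two-sided and Benjamini-Hochberg adjusted over 5238 junctions. The effective number was tested over 1381 hosts, since 9 of 1390 hosts were at 0 in a library. edgeR 4.0.16 tested recovered reads. The fits were checked on simulated data. Strand came from RefSeq (GRCm38.p6) by symbol, for 345 of 424 hosts.

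The members and gene lists were chosen with earlier results of these data known. Named by rule were Gigyf2, the 8 junctions with the smallest p in each direction (0 being called), the 6 hosts with the highest signal, the 4 with the most junctions, 4 whose leading junction differed, 3 by effective number, and up to 2 hosts of each role list. Same-numbered libraries deviated together weakly, with correlations of 0.166, 0.161 and 0.154 over 1996 junctions, against -0.185 to 0.0998 for other pairs. Deviations were taken from the mean of each genotype, so these correlations are not independent of one another. By these correlations the numbers were taken to pair the samples. This pairing comes from the data and is not stated in the labels. Replicate 1 also had the fewest reads in both genotypes, and the part of depth in these correlations was not tested.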

Additional observations from a re-analysis of the deposited data

How the results depend on the processing

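The count of 0 called junctions was the same under all 18 alternatives, with 40 to 136 at an unadjusted p under 0.05 and a smallest adjusted p of 0.335 to 0.995. The largest number, 136, came without replicate 1 of both genotypes, an alternative chosen after seeing the data. The count of hosts was 0 likewise. Whole-host tests of differential splicing by edgeR, which were not planned, also called 0 member hosts. Their smallest adjusted p was 0.169 by the F test and 0.462 by the Simes test. With the replicate number as a block, 0 junctions and 0 hosts were called (82 junctions at an unadjusted p under 0.05, smallest adjusted p 0.822), the effective number gave 0 (smallest adjusted p 0.561), and the pairing changed no call. Exchanging genotypes within replicate numbers, added after seeing the data, gave an exact p of 0.75 for the distance difference (-0.5359), 0.25 for the mean leading share and 1 for the length (smallest possible 0.25). For the effective number, 0 hosts were called under 10 alternatives, with 3 to 18 at an unadjusted p under 0.05. The 35 named junctions kept their direction, uncalled, in 541 refits. They were named for a small p, overall or within a role list, which favours a kept direction, so this adds no support. Sizes depended on the pseudocount, and p on the scale. With the arcsine of the square root of the share, the unadjusted limma p was 0.372 for the trace Gigyf2 junction and 0.00332 for the Spire1 junction. The number of hosts whose leading junction differed, 27, was 10 among the 225 hosts with a signal of at least 100, and 29 to 41 with 1 library left out, 41 without WT replicate 2; the cause was not tested, but the first tests fewer hosts. The distance difference ran from -1.717 to 0.3044 with 1 library left out, and its sign was reversed without 5xFAD replicate 2 (0.3044) and without 5xFAD replicate 3 (0.2193). The difference in mean log10 length, -0.003374 with all libraries, ran from -0.01505 to 0.01725. It was reversed without WT replicate 2 (0.000194), WT replicate 3 (0.001067) and 5xFAD replicate 1 (0.01725); for both, the cause was not tested. This length test and that of the mean leading share (-1.45 to -0.55 points with 1 library left out) were added after seeing the data. Intervals were wider for junctions with a share under 5% (median half-width 1.70) than for leading ones (1.02), and the part of depth in this was not tested.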
